A study of Mus musculus with 20 samples.

Results

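The genes described are 9 genes of fatty acid oxidation, chosen by name: the carnitine shuttle enzymes Cpt1a, Cpt1b and Cpt2, the acyl-CoA dehydrogenases Acadvl, Acadl and Acadm, the trifunctional protein subunits Hadha and Hadhb, and the nuclear receptor Ppara. The rule is this list of names. Of these 9 genes, 8 had a value among the 14776 genes of the expression table; Cpt1b, the muscle and brown fat form of the first enzyme, was not analysed here. The tissue was eWAT, the white fat of the epididymis, taken from male mice of the C57BL/6J strain, and RNA levels were given as FPKM, fragments per kilobase of exon scaled to library size, so that genes of different length can be compared. The groups were 6 mice on maintenance feed (normal control, NC), 7 mice on a high-fat diet, 60% of energy being fat, that received saline into the stomach (HFD), and 7 mice on that same diet dosed by the same route with 400 mg/kg of SZ-A daily. SZ-A stands for Ramulus Mori (Sangzhi) alkaloids, a preparation of mulberry twig. Feeding began at 6 weeks of age and ran for 14 weeks before dosing and 6 weeks during it, 20 weeks in all, and every group was fasted overnight before the tissue was taken. Whether NC mice were dosed with saline, and which mice shared a cage, are not given in the sources used here, so p-values measure the spread between these samples.

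Long-chain fatty acids are first joined to coenzyme A and then carried into mitochondria as carnitine esters, a passage that Cpt1a opens at the outer membrane, where malonyl-CoA inhibits it, and that Cpt2 completes at the inner membrane. Inside, the acyl-CoA dehydrogenases take chains of decreasing length (Acadvl, Acadl, Acadm) through the first oxidation, and the trifunctional protein, built of Hadha and Hadhb, carries out the remaining steps for long chains. Ppara is a fatty acid-activated transcription factor that binds DNA with a retinoid X receptor and is best known for inducing these enzymes in liver. White adipocytes mainly store and release fatty acids, and macrophages of obese fat also take up and oxidise them.

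Reads on the listed genes ran from 13567667 to 19388628 per mouse, and the members other than Ppara had 221 to 11900 reads in each mouse, against 7 to 146 for Ppara. One NC library stood apart: in NC replicate 6 the 20 adipocyte markers, all with a value, summed to 601 FPKM against 10228 to 25355 in the other NC mice, and adiponectin (Adipoq) was at 26.6 FPKM against 859 to 2278. The same library had the epithelial keratin Krt18 at 452 FPKM, a level that another NC library shared (454 FPKM at the highest). Of 26 markers of epididymis and epithelium 4 had a value: Krt18, Krt19, Sult1e1 and Aqp9. Gpx5, Lcn5 and Crisp1 of that list had none. Every listed gene was above 0 in every mouse, so a gene at 0 in any mouse may have no value. Lack of a value, here and for the markers below, therefore says nothing of a single library. The 4 with a value summed to 602 FPKM in NC replicate 6 and 62.8 to 587 in the other NC mice. The 20 macrophage markers, all with a value, summed to 5398 to 14207 FPKM in HFD mice, above the 113 to 1020 of NC mice, and to 2053 to 7212 in SZ-A mice. Of them, 19 of 20 rose in HFD against NC and 19 of 20 fell in SZ-A against HFD (limma, adjusted p under 0.05). HFD mice had adipocyte sums of 2364 to 7889 FPKM, SZ-A mice of 5554 to 16826, and 3 of the 20 markers fell and 1 rose in HFD against NC, or 11 fell and 1 rose without NC replicate 6. In SZ-A against HFD 4 rose and 0 fell, or 7 rose and 0 fell without SZ-A replicate 5. Of all genes 20.1% fell and 21% rose in HFD against NC, and 13.3% fell and 9.47% rose in SZ-A against HFD. SZ-A replicate 5 had 11.6% of its reads on mitochondrially encoded genes, against 1.67% to 5.11% in the other SZ-A mice, and the highest macrophage sum of its group. In a piece of tissue, fewer cells of a type and less RNA per cell cannot be told apart. Of 11 brown fat markers 6 had a value and summed to 10.05 to 29.5 FPKM, and Ucp1, Dio2, Elovl3, Zic1 and Otop1 had none. Of 17 skeletal muscle markers 7 had a value, with sums of 7.39 to 154 FPKM, and Ckm had none. Markers of fibroblasts and endothelial cells, 12 of 12 with a value, summed to 1045 to 1413 FPKM in HFD mice, above all NC mice (54.9 to 828) and all SZ-A mice (325 to 703), with 5 higher and 1 lower in HFD against NC and 6 lower in SZ-A against HFD. The 4 epididymis and epithelial markers summed to 8.88 to 25.2 FPKM in HFD mice, below all NC mice, and 7.77 to 268 in SZ-A mice. Of them 3 fell in HFD against NC, and 4 without NC replicate 6.

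**Figure D1:**
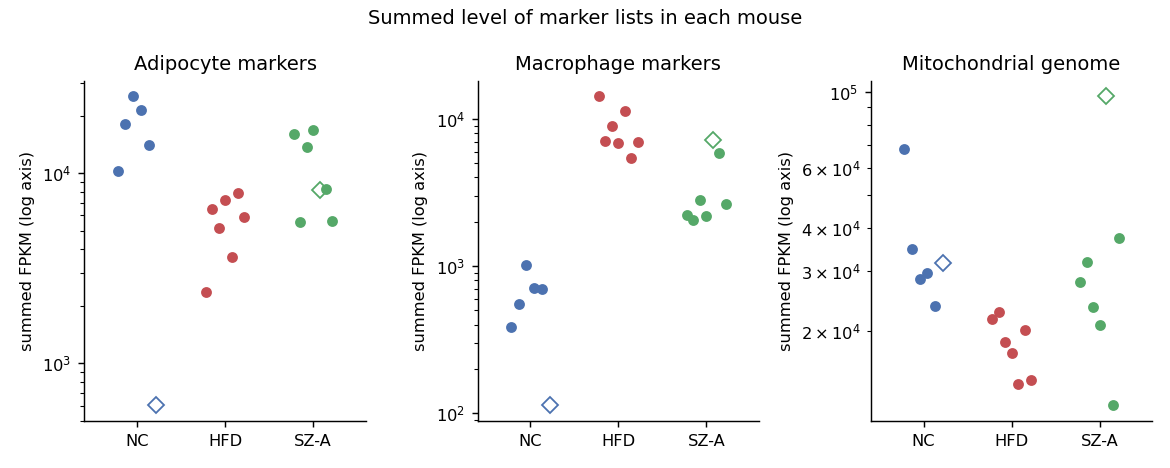
Summed FPKM (log axis) of the adipocyte markers, the macrophage markers and the mitochondrially encoded genes in each mouse, by group. Points are mice, and open diamonds mark NC replicate 6 and SZ-A replicate 5: the first lies at 601 FPKM of adipocyte markers, below all other mice, and the second has the highest mitochondrial sum, 96806 FPKM.

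Hadha and Hadhb encode the subunits of one enzyme complex and lie head to head, so the stretch between them is upstream of both, and it is printed because their ratio differed between SZ-A and HFD mice, as given below with its limits. In GENCODE release M21 for GRCm38, Hadha spans chr5:30118304-30155162 on the minus strand and Hadhb chr5:30155248-30184593 on the plus strand. The 85 bases between them, chr5:30155163-30155247 of GRCm38.p6 on the plus strand, were read from a RefSeq promoter window. Capitals mark 2 copies of the GC box GGGCGG, the motif bound by Sp family factors.

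Hadha-Hadhb: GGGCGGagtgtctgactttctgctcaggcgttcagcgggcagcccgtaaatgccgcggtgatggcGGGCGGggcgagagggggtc

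Cpt1a, printed because it and Hadha were the members called in both comparisons on the HFD group, spans chr19:3322334-3385733 on the plus strand. The 234 bases printed, chr19:3323051-3323284 of GRCm38.p6 on the plus strand, come from its RefSeq promoter window and end just before an annotated exon, and GENCODE also lists a transcript that begins upstream of them. Capitals again mark GC boxes, here 2 copies read as CCGCCC on the other strand.

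Cpt1a: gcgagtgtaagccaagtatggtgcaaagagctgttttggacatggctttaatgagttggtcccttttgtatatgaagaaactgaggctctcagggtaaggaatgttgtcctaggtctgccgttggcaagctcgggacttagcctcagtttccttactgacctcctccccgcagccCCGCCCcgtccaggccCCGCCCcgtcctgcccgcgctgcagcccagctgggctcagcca

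All 8 measured members matched a RefSeq window from 250 bases before to 50 bases after the start. Searched on both strands, GGGCGG was in the windows of Acadl, Cpt1a, Cpt2, Hadha, Hadhb and Ppara and in 35.7% of all 32851 windows. The PPAR direct repeat, 2 copies of AGGTCA with any 1 base between them, was in 0 member windows and in 0.0396% of all, and the ERR element TCAAGGTCA in 0 member windows and in 0.423% of all, which says only that these letters are not in these windows. Of the other members, Cpt2 is at chr4:107903981-107923610, Acadvl at chr11:70010183-70015411, Acadl at chr1:66830839-66863277 and Acadm at chr3:153922357-153944632, all on the minus strand, and Ppara at chr15:85734983-85802819 on the plus strand. A gene's FPKM covers all of its exons, untranslated regions included.

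The high-fat diet went with more Cpt1a and Hadha RNA and less Ppara RNA, and the other 5 members did not pass the test. SZ-A mice had less Cpt1a and Hadha than HFD mice, without overlap between these groups, as for 4.01% of genes. Ppara was higher in SZ-A mice on average without passing the test. The acyl-CoA dehydrogenases, Cpt2 and Hadhb passed in neither comparison. In HFD against NC, 3 of 8 members passed an adjusted p under 0.05 (limma on log2(FPKM + 1), Benjamini-Hochberg over all genes tested), where 41.1% of all 14706 genes passed. In SZ-A against HFD 2 of 8 passed, against 22.8% of 14695 genes. The members' shares were thus near those of all genes. Their median log2 fold change was 0.38 in HFD against NC beside -0.04 for all genes, and -0.10 in SZ-A against HFD beside 0.03, a sign that turned without SZ-A replicate 5 (0.07) and with array quality weights (0.21). Without NC replicate 6 the same 3 members passed in HFD against NC, against 45.2% of genes, and the members' median was 0.17. Members with a log2 fold change above 1.5 as well as the adjusted p numbered 0 in both comparisons, where that rule, the one in the study's methods, took 7.97% and 0.864% of genes. These 2 comparisons share the 7 HFD mice, so their opposite signs are not independent of each other.

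**Figure D2:**
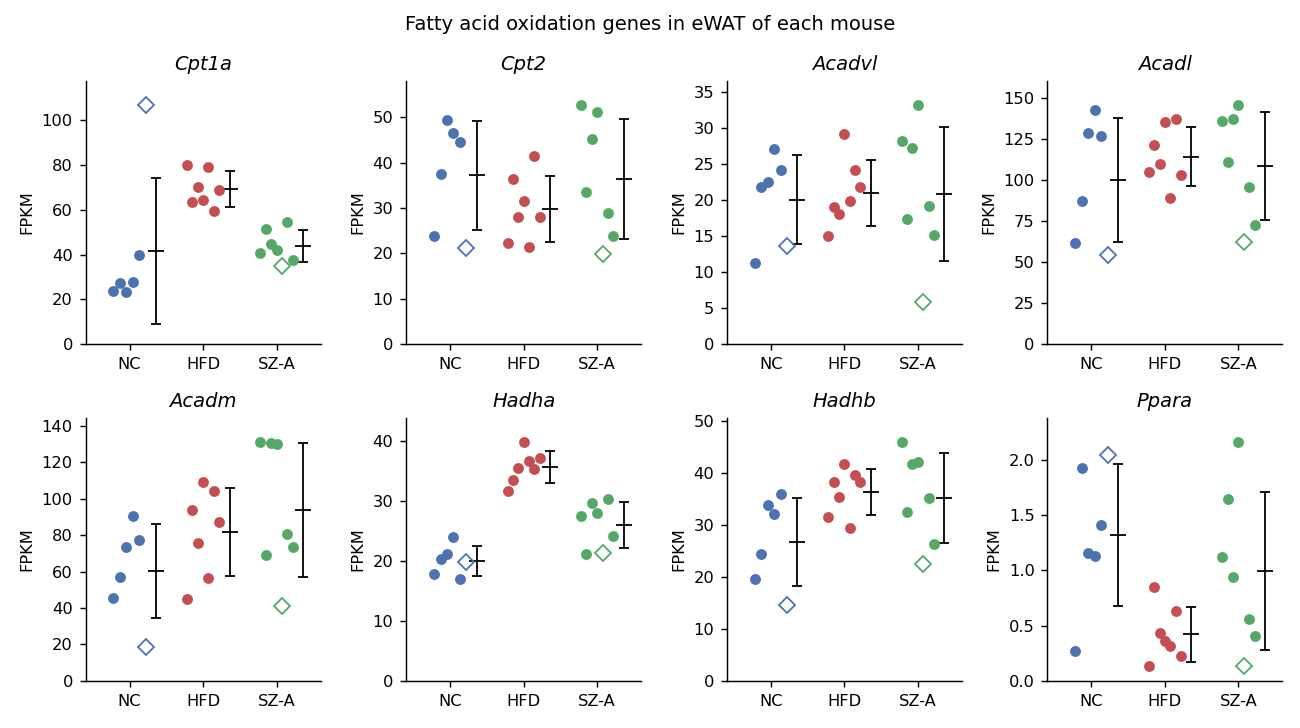
FPKM of the 8 measured members in each mouse, by group, with the mean and SD beside the points; each axis starts at 0. Open diamonds mark NC replicate 6 and SZ-A replicate 5. Hadha in the 7 HFD mice (31.7 to 39.9 FPKM) lies above all other mice, and Cpt1a in HFD lies above all mice but NC replicate 6 (107 FPKM).

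Cpt1a, which admits long-chain acyl groups to mitochondria, ran from 23.4 to 107 FPKM in NC with a median of 27.5, from 59.4 to 80.1 in HFD with a median of 68.8, and from 34.9 to 54.7 in SZ-A with a median of 42.2. The highest value of all belonged to NC replicate 6, and the next NC mouse was at 39.6 FPKM. All SZ-A mice lay below all HFD mice, as for 4.01% of genes, and without NC replicate 6 all NC mice did too, as for 14.9%. Group means were 41.4 ± 32.6 FPKM in NC (SD, n = 6), 69.4 ± 7.91 in HFD (SD, n = 7) and 43.8 ± 7.13 in SZ-A (SD, n = 7), and 28.3 ± 6.63 in NC without replicate 6 (SD, n = 5). On the log2(FPKM + 1) scale, HFD was above NC by 0.96 (SE 0.29, limma adjusted p = 0.0186), and by 1.28 without replicate 6 (adjusted p = 1.02e-05). SZ-A was below HFD by a log2 fold change of -0.66 (SE 0.12, limma adjusted p = 0.00189). The call in SZ-A against HFD held with each of the 14 mice left out in turn, with log2 fold changes from -0.72 to -0.61, and was lost with all 3 groups in the fit (limma adjusted p = 0.0759). Divided by the reference gene Ppia in each mouse, the difference was -0.75 and did not pass (limma adjusted p = 0.0604). Ppia itself spread from 106 to 203 FPKM in HFD and from 105 to 199 in SZ-A mice.

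Cpt2, which returns the acyl group from carnitine to coenzyme A, ran from 21.3 to 49.3 FPKM in NC (median 41.0), from 21.4 to 41.4 in HFD (median 28.1) and from 19.8 to 52.7 in SZ-A (median 33.4). The 3 groups overlapped broadly. Its log2 fold change was -0.27 in HFD against NC (95% interval -0.75 to 0.21, limma adjusted p = 0.355), -0.41 without NC replicate 6 (adjusted p = 0.115), and 0.23 in SZ-A against HFD (interval -0.25 to 0.70, adjusted p = 0.473). The last value was 0.36 without SZ-A replicate 5 (limma adjusted p = 0.198) and 0.54 with array quality weights, which passed (adjusted p = 0.0142).

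The ratio of Cpt1a to Cpt2 within a mouse does not depend on library scaling. It was 0.474 to 0.988 in 5 NC mice and 5.02 in NC replicate 6, 1.43 to 3.70 in HFD mice and 0.771 to 1.89 in SZ-A mice. SZ-A mice lay lower on average. Replicates 1, 3 and 4 of SZ-A were below all HFD mice, at 0.771, 0.993 and 0.824. The other SZ-A mice, at 1.54 to 1.89, lay inside the HFD range. The mean log2 ratio fell by 0.91 from HFD to SZ-A (exact permutation test, two-sided, p = 0.00932, adjusted p = 0.0372 over 15 tests on 5 gene pairs and 3 comparisons). From NC to HFD it was higher by 1.27 (exact permutation p = 0.0321, adjusted 0.0962), and by 1.74 without NC replicate 6 (exact permutation, adjusted p = 0.0189). The smallest p these groups allow is 0.000583. With 1 mouse left out, the SZ-A difference stayed between -1.03 and -0.79 and was past the adjusted threshold in 5 of 14 tests, but not once replicate 1, 3, 4, 5 or 7 of HFD or replicate 1, 3, 4 or 7 of SZ-A was left out.

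**Figure D3:**
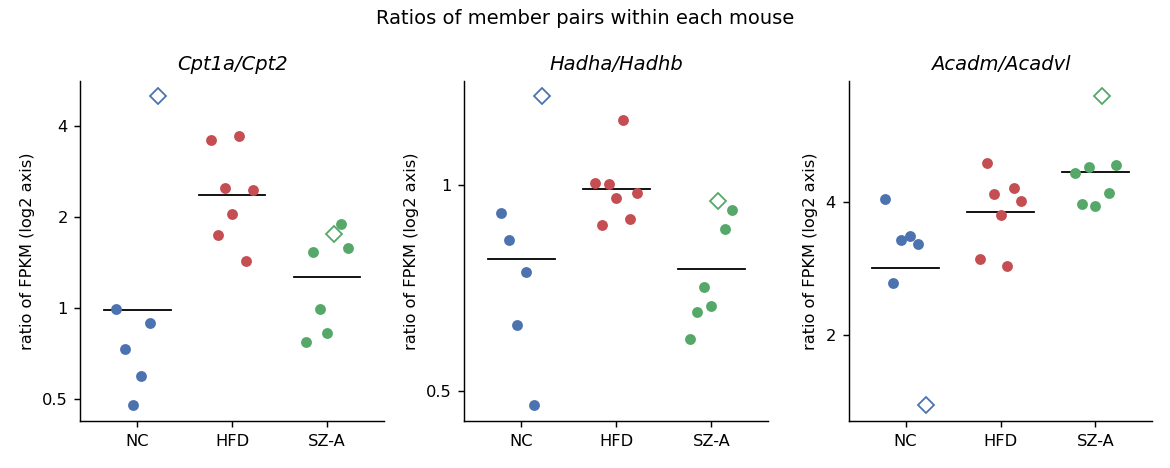
Ratio of the FPKM of 2 members within each mouse (log2 axis), by group, for Cpt1a to Cpt2, Hadha to Hadhb and Acadm to Acadvl. Points are mice, bars the geometric mean of a group, and open diamonds NC replicate 6 and SZ-A replicate 5. The Cpt1a to Cpt2 ratio averaged 2.37 in HFD mice, against 0.984 in NC and 1.26 in SZ-A mice.

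The 3 acyl-CoA dehydrogenases differed in level but not detectably between groups. Acadl, long-chain acyl-CoA dehydrogenase, had the highest mean of all members in each group: 100.1 ± 37.7 FPKM in NC (SD, n = 6), 114 ± 17.7 in HFD (SD, n = 7) and 109 ± 33.1 in SZ-A (SD, n = 7). Single NC mice ran from 54.3 to 142 FPKM (median 107), HFD mice from 89.1 to 137 (median 109.7) and SZ-A mice from 62.2 to 146 (median 111), so the groups lay on top of each other. Acadm, the medium-chain enzyme, ran from 18.9 to 90.5 FPKM in NC (median 65.4), 44.8 to 109 in HFD (median 87.5) and 41.0 to 131 in SZ-A (median 80.7). NC replicate 6 was the lowest mouse, and 3 SZ-A mice lay at or above 130 FPKM, the other 4 at 41.0 to 80.7. Acadvl, the very long-chain enzyme, was at 11.2 to 27.0 FPKM in NC (median 22.1), 15.0 to 29.2 in HFD (median 19.8) and 5.90 to 33.2 in SZ-A (median 19.2), where the lowest value was SZ-A replicate 5. Its mean was 20.04 ± 6.20 FPKM in NC (SD, n = 6), 20.998 ± 4.60 in HFD (SD, n = 7) and 20.9 ± 9.27 in SZ-A (SD, n = 7).

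None of these 3 genes passed the test in HFD against NC or SZ-A against HFD. The 95% intervals of the log2 fold changes in SZ-A against HFD were -0.43 to 0.73 for Acadm, -0.54 to 0.29 for Acadl and -0.74 to 0.48 for Acadvl, which leaves room for changes of either sign. Without SZ-A replicate 5 the values were 0.33 for Acadm and 0.12 for Acadvl, against 0.15 and -0.13 with it. In HFD against NC the values were 0.52 for Acadm (limma adjusted p = 0.232), 0.27 for Acadl (0.381) and 0.10 for Acadvl (0.729), and without NC replicate 6 they were 0.22, 0.11 and 0.01. The balance between chain lengths did differ between SZ-A and NC mice: the Acadm to Acadvl ratio was 3.92 to 6.95 in SZ-A and 1.38 to 4.07 in NC mice. That is a mean log2 difference of 0.72 (exact permutation test, two-sided, p = 0.00175, adjusted p = 0.0262 over the 15 tests), and of 0.52 without NC replicate 6 (exact permutation, adjusted p = 0.0280). It no longer passed once SZ-A replicate 1, 3 or 4 was left out. Acadm to Acadl was higher by 0.53 in SZ-A than in NC mice (exact permutation p = 0.00991, adjusted 0.0372), which without NC replicate 6 was 0.38 and did not pass (exact permutation, adjusted p = 0.0595), and which passed in 5 of 13 tests with 1 mouse left out. The ratios of Acadl to Acadvl did not pass in any of the 3 comparisons, with exact permutation p-values of 0.247, 0.909 and 0.405.

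Hadha, the subunit with the hydratase and hydroxyacyl-CoA dehydrogenase activities, separated the groups most cleanly. It ran from 17.0 to 23.9 FPKM in NC (median 19.99), from 31.7 to 39.9 in HFD (median 35.4) and from 21.2 to 30.4 in SZ-A (median 27.4). All HFD mice lay above all NC mice, as for 12.7% of genes, and above all SZ-A mice, as for 4.01% of genes. NC replicate 6 lay inside its group at 19.8 FPKM. Mean levels were 19.99 ± 2.44 FPKM for NC (SD, n = 6), 35.6 ± 2.65 for HFD (SD, n = 7) and 26 ± 3.80 for SZ-A (SD, n = 7). The log2 fold change was 0.81 in HFD against NC (SE 0.10, limma adjusted p = 3.9e-05), the same without NC replicate 6 to 2 decimals (adjusted p = 4.9e-05), and -0.45 in SZ-A against HFD (SE 0.10, adjusted p = 0.00727). Both calls held with each mouse left out in turn. Divided by Ppia, Hadha was higher in HFD than in NC by 0.96 (limma adjusted p = 0.00803), and lower in SZ-A than in HFD by a log2 fold change of -0.53 that did not pass (adjusted p = 0.183).

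Hadhb, the thiolase subunit of the same complex, moved less. Its range was 14.7 to 35.8 FPKM in NC (median 28.2), 29.4 to 41.6 in HFD (median 38.2) and 22.5 to 46.0 in SZ-A (median 35.2). The lowest NC mouse was replicate 6 and the lowest SZ-A mouse replicate 5. The log2 fold change was 0.48 in HFD against NC (limma adjusted p = 0.0606), 0.33 without NC replicate 6 (adjusted p = 0.0996), and -0.07 in SZ-A against HFD (95% interval -0.40 to 0.26, adjusted p = 0.761). HFD against NC passed without NC replicate 3, 4 or 5, at 0.56, 0.55 and 0.58, and did not with any of the other 10 mice left out.

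Measured within mice, the Hadha to Hadhb ratio was 0.872 to 1.25 in HFD mice and 0.596 to 0.947 in SZ-A mice. Its mean log2 value fell by 0.39 from HFD to SZ-A (exact permutation test, two-sided, p = 0.00758, adjusted p = 0.0372 over the 15 tests). In NC mice it was 0.476 to 0.911, or 1.35 in replicate 6, and HFD was higher by 0.34 (exact permutation, adjusted p = 0.208) or by 0.50 without NC replicate 6 (exact permutation, adjusted p = 0.0280). With 1 mouse left out, the SZ-A difference was -0.45 to -0.33 and past the threshold in 6 of 14 tests, but not once replicate 1, 3, 4, 5 or 7 of HFD or replicate 1, 3 or 4 of SZ-A was left out. These are the genes joined by the 85 bases shown above. Hadha's exons sum to 8730 bases and Hadhb's to 6595.

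Ppara was the member with the lowest level. It ran from 0.275 to 2.04 FPKM in NC (median 1.28), from 0.135 to 0.852 in HFD (median 0.364) and from 0.131 to 2.16 in SZ-A (median 0.935). In NC 5 of 6 mice lay above every HFD mouse, NC replicate 1 being the exception, whereas SZ-A mice spread across both ranges, 4 above the highest HFD mouse and 3 at 0.131 to 0.556 FPKM. Behind these values were 8 to 58 reads per HFD mouse, so counting error is large for the lowest mice. The lowest NC and SZ-A mice, NC replicate 1 and SZ-A replicate 5, also had the highest share of mitochondrially encoded reads in their groups, 8.34% and 11.6%, and its part in these values was not tested. The log2 fold change was -0.67 in HFD against NC (SE 0.18, limma adjusted p = 0.0102) and -0.58 without NC replicate 6 (adjusted p = 0.0177). A pseudocount of 1 FPKM understates changes at this level: with 0.1 FPKM the value was -1.39 (limma adjusted p = 0.0161). In SZ-A against HFD it was 0.43 (SE 0.20, 95% interval 0.00 to 0.85, limma adjusted p = 0.130), 0.55 without SZ-A replicate 5, which passed (adjusted p = 0.0322), and 0.64 with array quality weights, which also passed (adjusted p = 0.00298). These were the only passes in 14 fits with 1 mouse left out and in 13 other settings with all mice. With 0.1 FPKM the value was 0.88 and by voom 1.04, and neither passed (limma adjusted p = 0.170 and 0.189). Relative to Ppia the HFD difference was -0.52 and did not pass (limma adjusted p = 0.183). The macrophage, adipocyte, fibroblast, endothelial, epididymis and epithelial markers given above also moved between these groups. Their part in the Ppara, Cpt1a and Hadha differences was not tested.

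**Figure D4:**
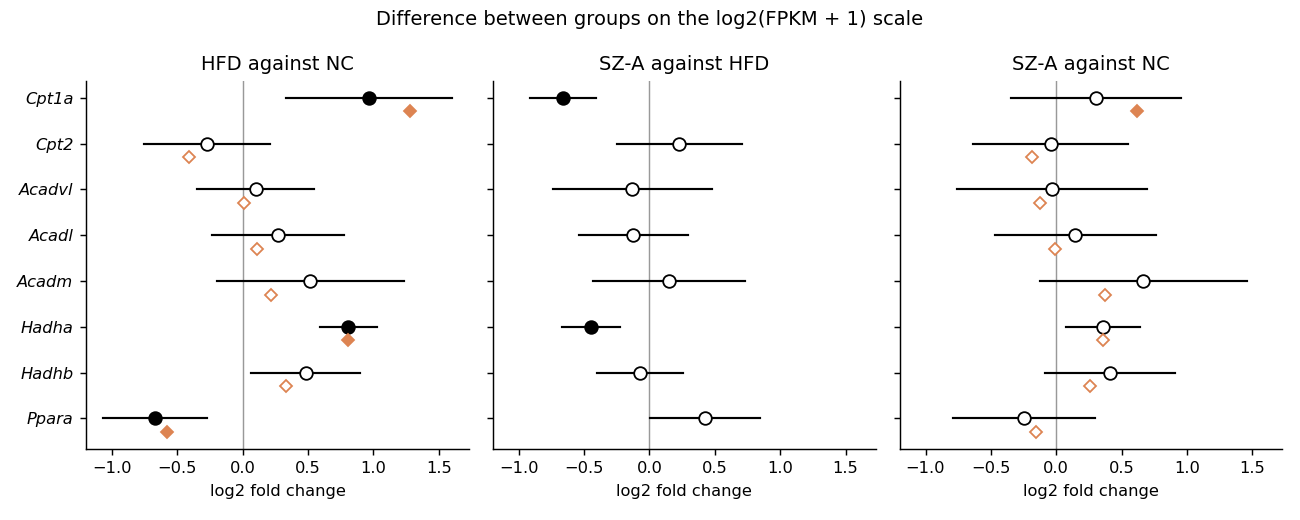
Log2 fold change on the log2(FPKM + 1) scale of the 8 members in 3 comparisons, with 95% intervals as lines; filled circles passed a limma adjusted p under 0.05, and orange diamonds are the values without NC replicate 6, filled where they passed. Cpt1a and Hadha lie on opposite sides of 0 in HFD against NC and SZ-A against HFD, which share the HFD mice.

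SZ-A mice against NC mice, the comparison that omits the HFD group, gave 0 of 8 members past the adjusted threshold by limma, where 4.61% of 14718 genes passed, and 0 of 8 by voom on the recovered reads. At an unadjusted p under 0.05 limma gave 1, Hadha. The value for Hadha was 0.36 (95% interval 0.07 to 0.64, limma adjusted p = 0.15). Cpt1a was at 0.30 (interval -0.35 to 0.95, adjusted p = 0.629) with NC replicate 6, and at 0.62 without it, where it passed (adjusted p = 0.0432) beside 5.5% of genes. Acadm was at 0.67 and Hadhb at 0.41, or 0.37 and 0.26 without NC replicate 6. Cpt2, Acadl, Acadvl and Ppara lay between -0.24 and 0.15, or between -0.18 and -0.01 without that mouse, and Hadha stayed at 0.36 (adjusted p = 0.175). Tested 1 gene at a time by exact permutation of the mice, two-sided, 7 of the 24 tests of a member in a pair of groups gave an unadjusted p under 0.05: Hadha in all 3 comparisons, Cpt1a and Hadhb in HFD against NC, Ppara in HFD against NC and Cpt1a in SZ-A against HFD. Adjusted over the 24 tests, Cpt1a and Hadhb in HFD against NC did not pass (exact permutation, adjusted p = 0.0676 and 0.0799). The share of all genes passing this exact test was not computed.

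By mean FPKM the order was Acadl, Acadm and Cpt1a in each group, with Ppara last, but the place of Cpt1a in NC rested on replicate 6: without it Cpt1a, at 28.3 FPKM, came after Cpt2 at 40.4 and Hadhb at 29.1. The middle places changed: Cpt2 was at rank 4 in NC and SZ-A and at rank 6 in HFD, behind Hadhb and Hadha at 36.3 and 35.6 FPKM, which did not differ beyond their spread. Acadvl and Hadha were level in NC, at 20.04 and 19.99 FPKM. Within SZ-A, replicates 1, 3 and 4 held the 3 highest values of Cpt2, Acadm, Acadl, Acadvl and Hadhb, 5 of the 8 members, and also the 3 highest adipocyte sums, 13798 to 16826 FPKM. SZ-A replicate 5 was the lowest of its group for 7 of 8 members, Hadha being the exception. For Cpt1a and Hadha the highest SZ-A mouse was replicate 6, with an adipocyte sum of 8286 FPKM, and for Hadha replicates 3, 4 and 1 came next, at 29.6, 28.0 and 27.4 FPKM. The part of adipocyte content in these levels was not tested.

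Scaled to the mean log2 level of the adipocyte markers in each mouse, the picture depended on NC replicate 6. With it, 0 of 8 members passed by limma in HFD against NC, and without it 6 passed, all higher in HFD: Cpt1a by 2.34, Hadha by 1.87, Hadhb by 1.39, Acadm by 1.28, Acadl by 1.17 and Acadvl by 1.07 on the log2 scale. In that fit 8464 of 14697 genes passed, 8329 of them higher in HFD. That scaling moved the median of all genes to 1.02, and the members' median was 1.23. In SZ-A against HFD the same scaling gave 5 members lower, among them Cpt1a by a log2 fold change of -1.57 and Hadha by -1.35, with the median of all genes at -0.87 and that of the members at -1.002. Over all genes 5516 of 14695 were lower. Ppara, Cpt2 and Acadm changed sign there, to -0.48, -0.68 and -0.75.

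Other genes of the pathway were taken from lists by role. On the deposited scale most of those that passed were lower in HFD mice than in NC mice and higher with SZ-A, against the signs of Cpt1a and Hadha, and relative to adipocyte markers neither direction held. The lists of activation and carnitine transport, mitochondrial oxidation and peroxisomal oxidation held 57 genes besides the members, of which 52 had a value: in HFD against NC 24 fell and 4 rose, against 20.1% and 21% of all genes, and in SZ-A against HFD 10 rose and 2 fell, against 9.47% and 13.3%. Their median log2 fold changes were -0.45 and 0.25. With NC replicate 6 left out, 27 fell and 3 rose in HFD, and with SZ-A replicate 5 left out, 15 rose and 3 fell in SZ-A mice. Each list gene named below as rising or falling in HFD against NC also passed without NC replicate 6, while Slc22a5, Plin5 and Prkag2 passed only without it, at -1.13, -1.08 and -0.62. Relative to Ppia the counts were 12 lower and 3 higher in HFD against NC, and 0 higher and 1 lower in SZ-A against HFD. Relative to the adipocyte markers 0 fell and 1 rose in HFD, or 0 fell and 16 rose without NC replicate 6 (median 0.59, beside 1.02 for all genes), and 9 fell in SZ-A mice with the median turned to -0.66, beside -0.87 for all genes.

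**Figure D5:**
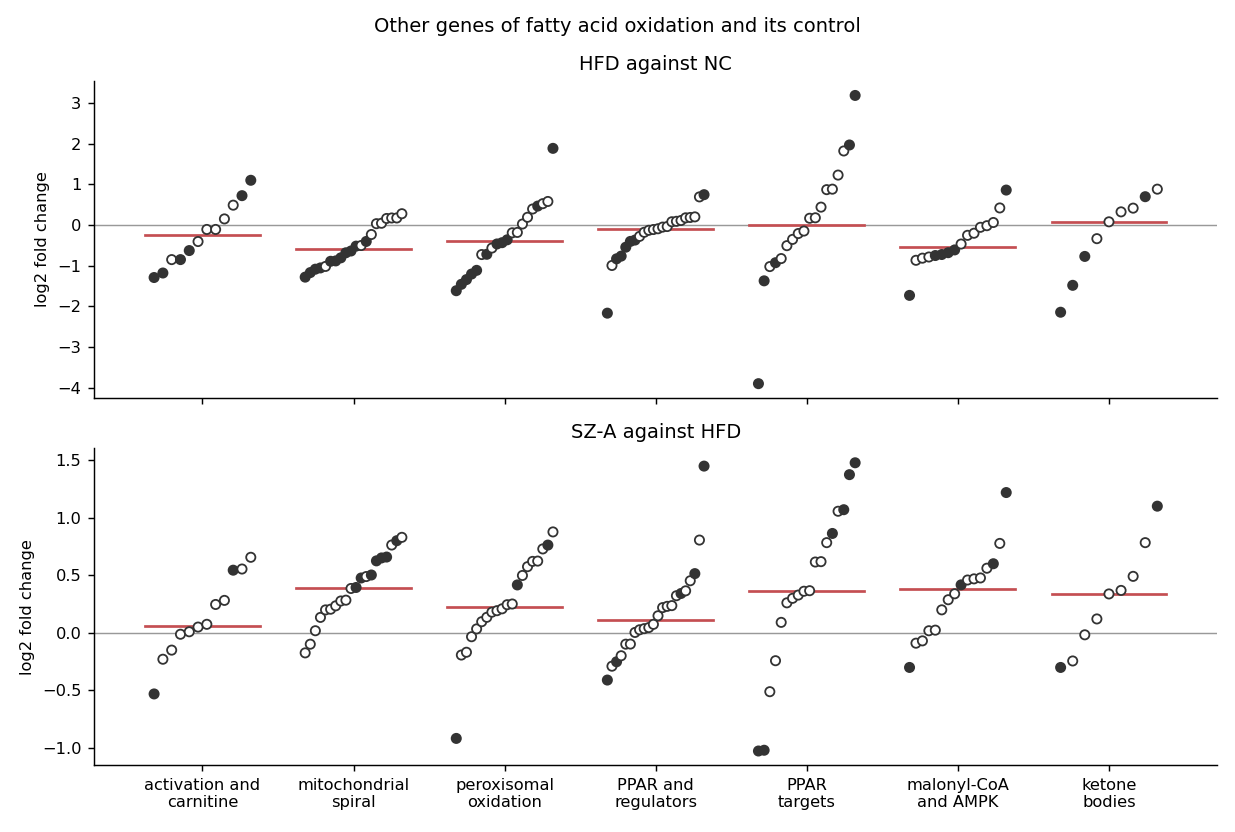
Log2 fold change of each measured gene of 7 lists in HFD against NC and in SZ-A against HFD; points are genes, filled where they passed a limma adjusted p under 0.05, and red bars are list medians. In the mitochondrial list the median was -0.58 in HFD against NC and 0.39 in SZ-A against HFD.

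The mitochondrial spiral list held 20 genes other than the members, all with a value. Of them 11 fell in HFD against NC and 7 rose in SZ-A against HFD, where 20.1% and 9.47% of all genes did. The counts were 13 without NC replicate 6 and 9 without SZ-A replicate 5. Acad10, an acyl-CoA dehydrogenase family member, had a mean of 4.94 ± 0.43 FPKM with NC, 1.88 ± 0.413 with HFD and 3.44 ± 0.673 with SZ-A (SD, n = 6, 7 and 7), log2 fold changes of -1.05 and 0.62. Eci2, which moves double bonds of unsaturated chains into place, fell by 0.89 and rose by 0.50. Hsd17b10, a short-chain hydroxyacyl-CoA dehydrogenase, fell by 1.17 from a mean of 75.6 to 32.2 FPKM and Acad8, of branched-chain amino acid breakdown, by 0.88. Acad12 rose in SZ-A mice to 6.94 FPKM, from 4.02 in HFD. The thioesterase Acot2 fell by 0.68 in HFD and was 0.23 in SZ-A against HFD without passing (limma adjusted p = 0.332).

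In activation and carnitine transport, 12 of 15 genes had a value, and 2 rose and 4 fell in HFD against NC, where 21% and 20.1% of all genes did. Aldh9a1, an aldehyde dehydrogenase of carnitine synthesis, was at 22.5 ± 2.80 FPKM with NC, 49.2 ± 3.88 with HFD and 33.8 ± 4.82 with SZ-A (SD, n = 6, 7 and 7), log2 fold changes of 1.1 and -0.53. The acyl-CoA synthetases split: Acsl5 rose by 0.72, while Acsl4 fell by 1.29 and Acsl1, the main form of adipocytes, fell by 1.18 in HFD. Slc27a1, a fatty acid transport protein, fell by 0.85. In SZ-A against HFD 2 of the 12 passed, beside 22.8% of all genes. These were Aldh9a1, lower, and the carnitine carrier Slc22a5, higher by 0.54, and 3 passed without SZ-A replicate 5.

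Of the peroxisomal genes, 20 of 22 had a value, 9 fell and 2 rose in HFD against NC, and 2 rose and 1 fell in SZ-A against HFD. For all genes the shares were 20.1% and 21%, then 9.47% and 13.3%. Without NC replicate 6 10 fell and 1 rose, and without SZ-A replicate 5 4 rose and 2 fell. Scp2, which carries sterols and thiolase activity, had log2 fold changes of -1.20 and 0.76, with means of 243, 99.2 and 169 FPKM with NC, HFD and SZ-A. Amacr, a racemase for branched chains, fell by 0.47 and rose by 0.41, and the thioesterase Acot4 and the transporter Abcd3 fell by 1.61 and 0.72 in HFD.

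Among the PPAR family and its co-regulators, 22 of 24 genes had a value. In HFD against NC 6 fell and 1 rose, where 20.1% and 21% of all genes did, or 9 fell and 2 rose without NC replicate 6. In SZ-A against HFD 3 rose and 2 fell, or 6 rose and 1 fell without SZ-A replicate 5. Klf15, a factor that favours fatty acid use, averaged 28.3 ± 8.77 FPKM with NC, 6.09 ± 4.39 with HFD and 16.4 ± 3.67 with SZ-A (SD, n = 6, 7 and 7), log2 fold changes of -2.17 and 1.45. The orphan receptor Esrrg fell by 0.76 and rose by 0.51. Pprc1, a coactivator of mitochondrial genes, rose by 0.74 and was lower in SZ-A mice by a log2 fold change of -0.41, and the corepressor Nrip1 and the mitochondrial factor Tfam fell in HFD by 0.83 and 0.37.

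The list of PPAR targets, 18 of 22 with a value, did not go one way: 2 rose and 3 fell in HFD against NC, and 4 rose and 2 fell in SZ-A against HFD. Over all genes 21% rose and 20.1% fell in the first, and 9.47% rose and 13.3% fell in the second. The lipid droplet coat gene Plin2 averaged 108 ± 79.9 FPKM with NC, 670.4 ± 146 with HFD and 352 ± 167 with SZ-A (SD, n = 6, 7 and 7), log2 fold changes of 3.18 (2.49 without NC replicate 6) and -1.03, and the mitochondrial carrier Ucp2 rose by 1.97 in HFD and fell by 1.02 in SZ-A mice. Macrophages express both genes too. Pex11a, of peroxisome division, fell by 0.93 and rose by 0.86. Plin5, which ties lipid droplets to mitochondria, rose in SZ-A mice by 1.48, from 4.34 to 13.8 FPKM. The desaturase Fads2 fell by 3.90 in HFD and spread from 1.38 to 115 FPKM over the SZ-A mice. Without NC replicate 6 the counts in HFD against NC were 3 higher and 7 lower.

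Malonyl-CoA, the inhibitor of Cpt1a, is made by Acaca and Acacb, removed by Mlycd and controlled through AMP-activated kinase. Of 16 genes around it, all with a value, 5 fell and 1 rose in HFD against NC (7 and 1 without NC replicate 6), and 3 rose and 1 fell in SZ-A against HFD. With all mice, 20.1% of all genes fell and 21% rose in HFD, and 9.47% rose and 13.3% fell in SZ-A mice. Acacb, whose product sits at mitochondria, averaged 31.7 ± 25.0 FPKM with NC, 6.89 ± 3.47 with HFD and 17.0 ± 7.01 with SZ-A (SD, n = 6, 7 and 7), log2 fold changes of -1.73 and 1.22. Mlycd fell by 0.61 in HFD and was 0.47 in SZ-A against HFD without passing (limma adjusted p = 0.0909). Camkk2, a kinase upstream of AMP-activated kinase, rose by 0.86 and was lower in SZ-A mice by a log2 fold change of -0.30, and the regulatory subunits Prkag1 and Prkag2 rose by 0.60 and 0.42 in SZ-A mice.

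Of 9 ketone body genes, all with a value, 3 fell and 1 rose in HFD against NC (4 and 1 without NC replicate 6), and 1 rose and 1 fell in SZ-A against HFD (3 and 1 without SZ-A replicate 5). The same shares of all genes with all mice, 20.1% and 21%, then 9.47% and 13.3%, stand beside these counts. The cytosolic thiolase Acat2 fell by 2.14 and rose by 1.1, and Oxct1, which lets tissues use ketones, rose by 0.69 in HFD. The mitochondrially encoded transcripts, 12 of 13 with a value, fell at 6 genes in HFD against NC, with sums of 23648 to 67856 FPKM in NC and 13988 to 22809 in HFD mice.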

How the data were processed

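Poly(A) RNA from eWAT of 20 mice was sequenced as paired-end reads; the authors aligned them to GRCm38 with HISAT2, the submitters' processing notes name featureCounts 1.5.0-p3, and the authors deposited FPKM, counts scaled to exon length and library size. The annotation release is not given in the sources used here. All 14776 listed genes were above 0 in every mouse. Reads behind each value were recovered with exon lengths of GENCODE M21 (in each mouse 95.9% to 96.3% of values under 1000 reads came out whole within 0.01 reads). The library size that the values imply was not the sum of these reads. It was 15406889 against 17216011 reads in HFD replicate 1, and 19033685 against 17613988 in NC replicate 5. The cause was not tested. Groups were taken from the labels, which give 6, 7 and 7 mice.

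Groups were compared in pairs with limma 3.58.1 (R 4.3.3) on log2(FPKM + 1), with a variance trend, keeping genes whose mean reached 0.1 FPKM. P-values were adjusted by Benjamini-Hochberg over all genes tested and called under 0.05. DESeq2, the authors' tool, needs counts and was not used. Ratios of member pairs and single members were tested by exact permutation over all regroupings of the mice, two-sided. The steps were tested on simulated data. The ratio of Cpt1a to Cpt1b was not analysed here, which left 15 ratio tests. Alternatives were other pseudocounts (0.1 and 0.01), filters, scalings, weights, the omission of each mouse in turn, replicate numbers as a block, and voom on recovered reads, which called 5871 genes in HFD against NC and 3405 in SZ-A against HFD. Settings that combine the omission of NC replicate 6 with another choice, or drop SZ-A replicate 5 with HFD replicate 1, were chosen after seeing the data.

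The members and gene lists were chosen with earlier results of these data known. The genes named are the members, up to 4 genes per pathway list with the smallest adjusted p in each of HFD against NC and SZ-A against HFD, up to 4 markers per cell type by mean FPKM, Ppia, and the 5 genes most like Ppara and Cpt1a. Markers without a value were named outside that rule, and a few list genes that it names are not reported here. Python 3.11.15, pandas 2.3.3, NumPy 2.4.6 and matplotlib 3.10.9 were used.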

Additional observations from a re-analysis of the deposited data

Results flagged for a closer look

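Of the 24 combinations of a member and a group, 1 held a mouse far from the others by Dixon's test at the 95% level: Cpt1a in NC replicate 6, at 106.856 FPKM against 23.4 to 39.6 in the other 5 NC mice. The gap was 0.657 of the range on the log2(FPKM + 1) scale. Chance gives such a mark in about 1 in 20 groups. The same library had the lowest adipocyte and macrophage sums of all mice, and the part of tissue composition in its Cpt1a level was not tested.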

How the results depend on the processing

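Groups held 6 or 7 mice, one NC library stood apart, and Ppara rested on 7 to 146 reads. Of the members' values under all alternatives 831 kept their direction and side of the threshold, 22 passed newly, 41 no longer passed and 46 changed sign, mostly values near 0. The cause of these changes was not tested.

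The 3 members called in HFD against NC became 0 relative to the adipocyte markers, 6 when NC replicate 6 was also left out, and 0 with a log2 fold change above 1.5 required. The 2 called in SZ-A against HFD became 0 relative to Ppia or with that fold, 5 relative to the adipocyte markers, 1 with all 3 groups in the fit, where Cpt1a was lost, and 4 with array quality weights, where Cpt2 and Ppara joined Cpt1a and Hadha. The 0 called in SZ-A against NC became 1 with all 3 groups in the fit (Hadha) and 4 with array quality weights (Acadm, Cpt1a, Hadha and Hadhb). Over all 14718 genes the calls there went from 678 to 1527 and 2639. With each mouse left out, the counts were 3 to 4, 2 to 3 and 0 to 1, the last being 1 without NC replicate 6, and the unadjusted exact tests passed 6 to 9 times. Ratio calls ran from 0 to 5: 5 without NC replicate 6, 0 without SZ-A replicate 1, 3 or 4, 2 without SZ-A replicate 7 and 1 without HFD replicate 1, 3, 4, 5 or 7.

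Over all genes, calls in HFD against NC went from 6047 to 3459 relative to Ppia and 588 relative to the adipocyte markers. Those in SZ-A against HFD went from 3349 to 1056, 5526, 2089 with all 3 groups and 6403 with array weights. Scaling to Ppia moved the all-gene median to 0.11 and -0.05, and scaling to the adipocyte markers to 0.36 and -0.87. Relative to the adipocyte markers 10 genes were higher and 5516 lower in SZ-A against HFD, against 1392 and 1957 as deposited, and relative to Ppia 262 and 794. In HFD against NC 556 were higher and 32 lower relative to the adipocyte markers, and 2454 and 1005 relative to Ppia, against 3091 and 2956. Relative to the adipocyte markers and without NC replicate 6, 8329 were higher and 135 lower.

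In HFD against NC, Cpt2 changed sign to 0.13 relative to the adipocyte markers and to 0.65 also without NC replicate 6, where Ppara was 0.48. Acadvl was -0.055 with array weights and -0.045 to 0.19 with each mouse left out. In SZ-A against HFD, the adipocyte scaling turned Cpt2 to -0.68, Acadm to -0.75 and Ppara to -0.48. Array weights turned Acadl to 0.16, Acadvl to 0.25 and Hadhb to 0.12, Acadvl was 0.05 without SZ-A replicate 5 and HFD replicate 1, and with each mouse left out Acadvl was -0.26 to 0.12 and Hadhb -0.14 to 0.026. The Acadl to Acadvl ratio was then -0.13 to 0.085.

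In SZ-A against NC, the adipocyte scaling turned Cpt1a to -0.20, Acadl to -0.35, Hadha to -0.14 and Hadhb to -0.090. Cpt2 and Acadvl were 0.026 and 0.036 relative to Ppia and 0.11 and 0.20 with array weights. Without NC replicate 6, Acadl was -0.012 by voom, and Acadvl 0.030 relative to the adipocyte markers and 0.0077 relative to Ppia. With each mouse left out, Cpt2 was -0.18 to 0.085, Acadl -0.0094 to 0.27, Acadvl -0.18 to 0.22 and the Hadha to Hadhb ratio -0.19 to 0.11.

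The mice were treated as unpaired, since the sources used here do not say whether the replicate numbers pair them. Deviations of same-numbered mice correlated from -0.41 to 0.58, which cannot decide it. With the replicate block 2, 2 and 0 members passed in the 3 comparisons and 0 ratios, and Cpt2 and Acadvl were 0.041 and 0.016 in SZ-A against NC. The block left 4424 genes called in HFD against NC and 2619 in SZ-A against HFD.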

Other observations

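The genes whose levels most resembled Ppara and Cpt1a were listed by the Pearson correlation of log2(FPKM + 1) after subtracting each group's mean, among genes averaging 1 FPKM or more, as a description with no test. Over all 20 mice those nearest to Ppara were Clstn1 (0.89), Ddx6 (0.87), Raver2 (0.87), Bcr (0.85) and Upf2 (0.85). Without NC replicate 6, over 19 mice, they were Ralgapa2 (0.90), Clstn1 (0.90), Ncoa1 (0.89), Farp2 (0.88) and a gene listed by identifier only (0.88), so 1 of 5 names was shared. For Cpt1a the first 5 over 20 mice were Impa2 (0.94), Bcas3 (0.93), Btbd9 (0.93), Endod1 (0.93) and Mia3 (0.92). Without NC replicate 6 they were Kif3b (0.90), Tmx4 (0.88), Stk24 (0.87), Gnai3 (0.87) and Wdr7 (0.86), with 0 of 5 names shared. The Cpt1a list therefore rests on that library. All points share the scaling of their library.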
